A study of Homo sapiens with 6 samples.

Results

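The actin, tubulin and keratin genes ACTB, ACTG1, TUBA1A, TUBA1B, TUBA1C, TUBB, TUBB4B, KRT8, KRT18 and KRT19 were examined for DNA double-strand breaks (DSBs) after camptothecin (CPT). These 10 genes were taken by name from 20098 protein-coding genes on chromosomes 1 to 22 and X, and each was described over its gene body (the span of its representative transcript in hg19) with 5 kb on each side. DSBs had been mapped by END-seq, in which an adapter is ligated to free DNA ends in agarose-embedded cells and reads run away from the break, so that a DSB gives a peak in the reverse list on its left and a peak in the forward list on its right. The cells were HCT116, an established human colorectal carcinoma line, with 2 biological replicates each left untreated (Ctrl), treated with 10 µM CPT for 10 min (CPT10) or treated with 10 µM CPT for 20 min (CPT20). The sample names carry 10 and 20 as µM, whereas the treatment protocol gives 1 dose and these times, and the protocol was followed. Murine pre-B cells were mixed into every sample as a spike-in. All of the values below come from 8 peak lists, since each of the 4 treated libraries has 1 list per strand. The Ctrl libraries entered as the input of the authors' peak calling, and no Ctrl list was analysed here, so untreated cells give no background level for these genes. The lists held between 286491 peaks (CPT20 replicate 2, reverse) and 826744 peaks (CPT10 replicate 1, reverse).

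CPT traps DNA topoisomerase I on DNA after it has nicked a strand to relieve supercoiling, and the trapped enzyme is an obstacle to transcription and replication. Actin, tubulin and keratin form the microfilaments, microtubules and intermediate filaments of an epithelial cell. ACTB and ACTG1 encode the cytoplasmic beta and gamma actins, the TUBA1 and TUBB genes encode the alpha and beta subunits of the tubulin dimer, and KRT8, KRT18 and KRT19 encode keratins of simple epithelia such as the lining of the colon. The coding exons of such families resemble each other closely and have left many processed pseudogenes, intronless copies of their messenger RNAs elsewhere in the genome.

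The 10 windows, 12421 to 19519 bp long and 148.0 kb in all, held 523 peaks. To compare libraries of unequal depth, the number of peaks overlapping a window was divided by the number that the same library's mean peak density on chromosomes 1 to 22 and X would give, so that 1 is the genome average. Over the 10 windows together this density ratio was 2.31 in CPT10 replicate 1 (159 peaks, exact 95% Poisson interval 1.97 to 2.70), 1.96 in CPT10 replicate 2 (100 peaks, 1.60 to 2.39), 2.70 in CPT20 replicate 1 (160 peaks, 2.30 to 3.15) and 3.73 in CPT20 replicate 2 (104 peaks, 3.05 to 4.52). All 4 intervals lay above the genome average. Gaps of the assembly were counted in the length behind this average, which raises every ratio to it somewhat. Relative to the 500 kb on each side of the genes the ratios were 1.76, 2.04, 1.68 and 3.07. Intervals and binomial tests here and below take account of counting error alone, since peaks next to each other can stem from the same break and the authors had kept PCR duplicates.

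Averaged over the 4 libraries, 8 of the 10 genes had a density ratio above 2.51, the 95th percentile of all protein-coding genes, whose median was 1.21. The median window of all these genes was 32712 bp, longer than any member window, and the percentiles were not matched for length. In decreasing order the mean ratios were 3.70 for KRT19, 3.64 for ACTG1, 3.20 for KRT18, 3.19 for TUBA1C, 3.12 for TUBA1B, 2.77 for ACTB, 2.73 for TUBB4B, 2.55 for KRT8 and 1.95 for TUBA1A, and TUBB was at 0. Among the 8 highest genes the ranges over the libraries overlapped for each pair, and within libraries 10 of 28 pairs kept their order in all 4, among them KRT8 below KRT18 and KRT19 and ACTB below ACTG1 and KRT19. Relative to the 500 kb on each side, however, ACTB was above ACTG1 in all 4 libraries. These ratios were 1.78 and 2.44 at 10 min and 1.87 and 4.06 at 20 min for ACTB. ACTG1 had 1.18 and 2.26 at 10 min and 1.32 and 1.99 at 20 min. ACTB stayed below KRT19 in each library on this scale. None of these orders was tested. A peak was present in each of the 8 lists for 9 members, against 76.6% of all protein-coding genes.

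**Figure D1:**
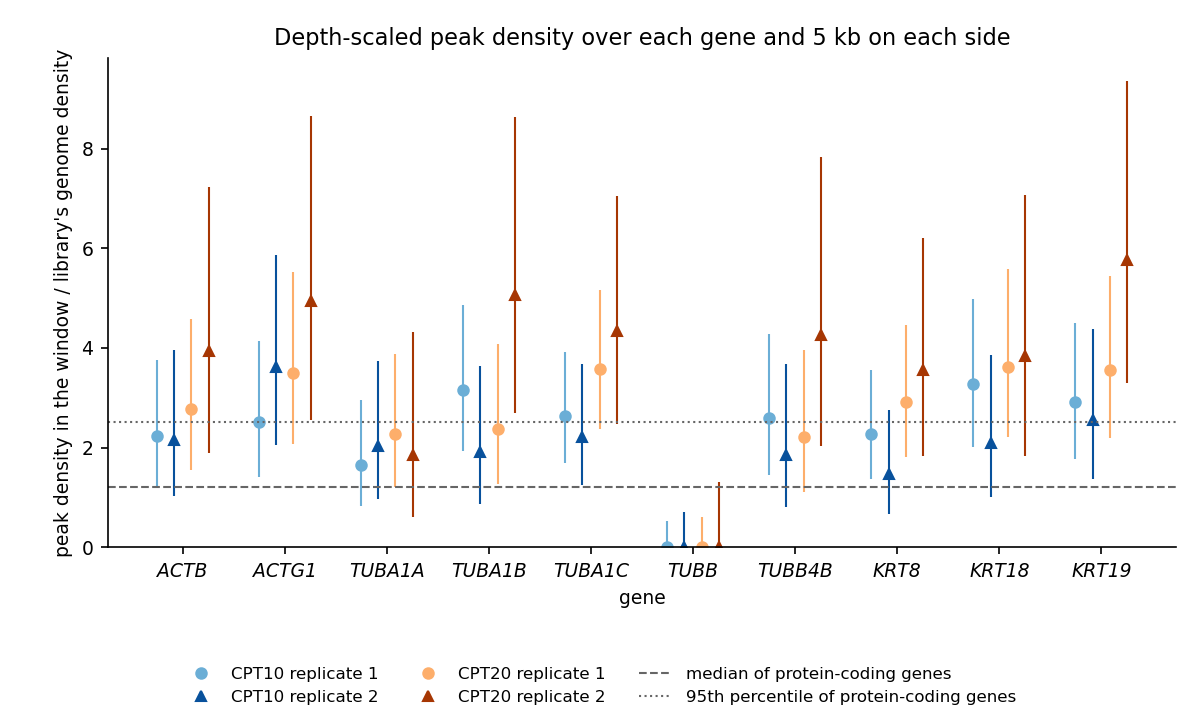
Depth-scaled peak density (vertical axis, ratio to the library's genome average) of the 10 genes with 5 kb on each side, with 1 point per library and exact 95% Poisson intervals as bars. The dashed line is the median (1.21) and the dotted line the 95th percentile (2.51) of 20098 protein-coding genes. TUBB lies at 0 in all 4 libraries, and CPT20 replicate 2 gave the highest value for 8 genes.

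Peaks of either strand covered a larger share of the gene body than at 95% of protein-coding genes for 8 of the 10 members. Peaks covered on average 93.4% of ACTG1, 86.0% of ACTB, 67.6% of TUBB4B, 66.5% of KRT19, 65.3% of TUBA1B, 63.4% of KRT18, 49.1% of TUBA1C, 35.8% of KRT8 and 15.2% of TUBA1A. Over all protein-coding genes the median was 10.0% and the 95th percentile 28.6%, again without matching for gene length. Both actin genes were at the 99.9th percentile, and TUBA1A, at the 77.8th, stayed below the 95th.

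**Figure D2:**
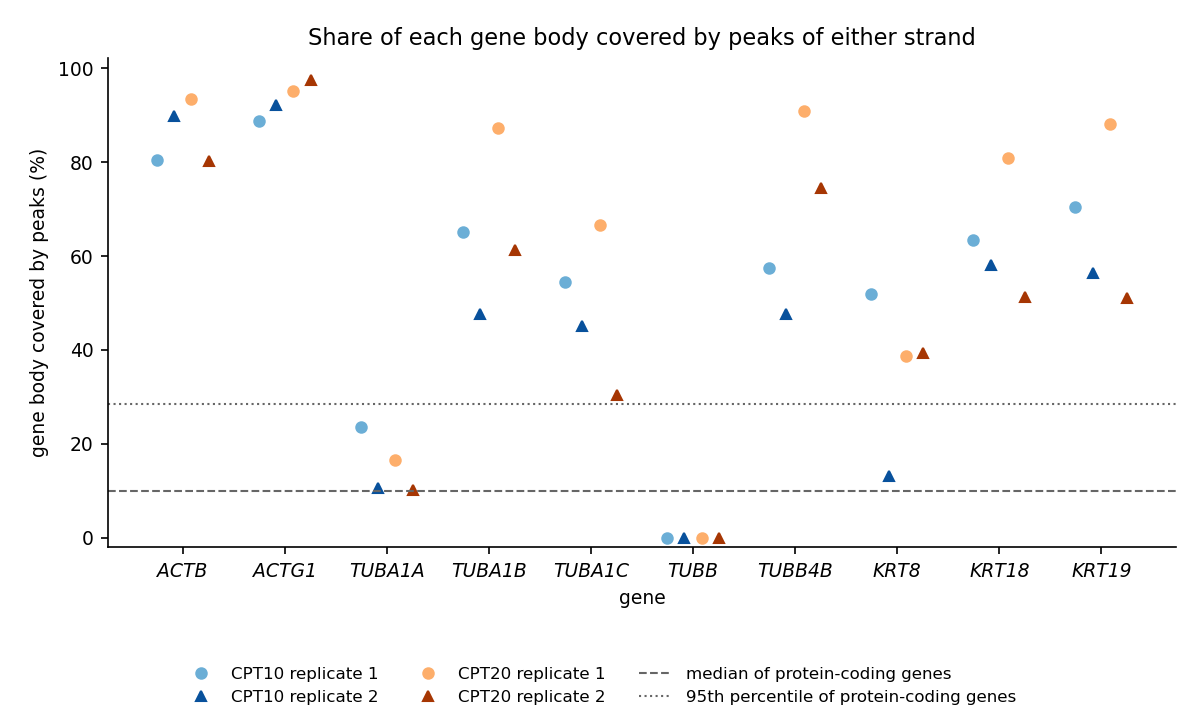
Share of each gene body covered by peaks of the forward or reverse list (vertical axis, percent), with 1 point per library. The dashed and dotted lines are the median (10.0%) and 95th percentile (28.6%) of 20098 protein-coding genes. ACTG1 lies between 88.8% and 97.4% in all 4 libraries, while TUBA1A lies between 10.1% and 23.5%.

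The actin genes carried the widest peaks. ACTG1 (chr17:79476997-79479825, minus strand) lay under a reverse peak of 6168 bp in CPT10 replicate 1, 2825 bp in CPT10 replicate 2, 4623 bp in CPT20 replicate 1 and 4214 bp in CPT20 replicate 2. The median width in the lists was 183 to 219 bp. A summit is the position of highest coverage. Its fold enrichment is its height over the constant expected height of the list, with 1 fragment added to both. The summits of these 4 peaks had fold enrichments of 35.3, 20.3, 60.9 and 25.3, with 84, 34, 133 and 46 fragments. All of them lay inside the transcribed region, 1068, 1613, 1069 and 2323 bp downstream of the 5′ end. The strongest forward peaks of ACTG1 had summits 698 to 1628 bp downstream of the 5′ end in the 4 libraries.

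At ACTB (chr7:5566779-5570232, minus strand) the strongest reverse peaks were 2625, 2073, 2990 and 3192 bp wide in the same order of libraries. Their summits had fold enrichments of 18.7, 20.8, 26.4 and 29.1. They lay 1670 to 2021 bp downstream of the 5′ end. The forward summits of ACTB were spread more, from 1088 to 2442 bp.

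Among 4257149 peaks on chromosomes 1 to 22 and X, 384 were at least 2000 bp wide (0.00902%). Of the 523 peaks over the 10 genes, 14 were as wide, of which 7 belonged to ACTG1, 5 to ACTB and 1 each to TUBB4B and KRT19. ACTB and ACTG1 were 2 of the 11 protein-coding genes (0.0547%) with such a peak in each of the 4 libraries. The width of 2000 bp was chosen after these peaks had been seen, so the counts are a description. At ACTG1 the surrounding 500 kb on each side also had a high peak density, 2.21 times the genome average, and the density of its window over these surroundings was 1.69. At ACTB the surroundings were at 1.15, and the ratio to them was 2.54.

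**Figure D3:**
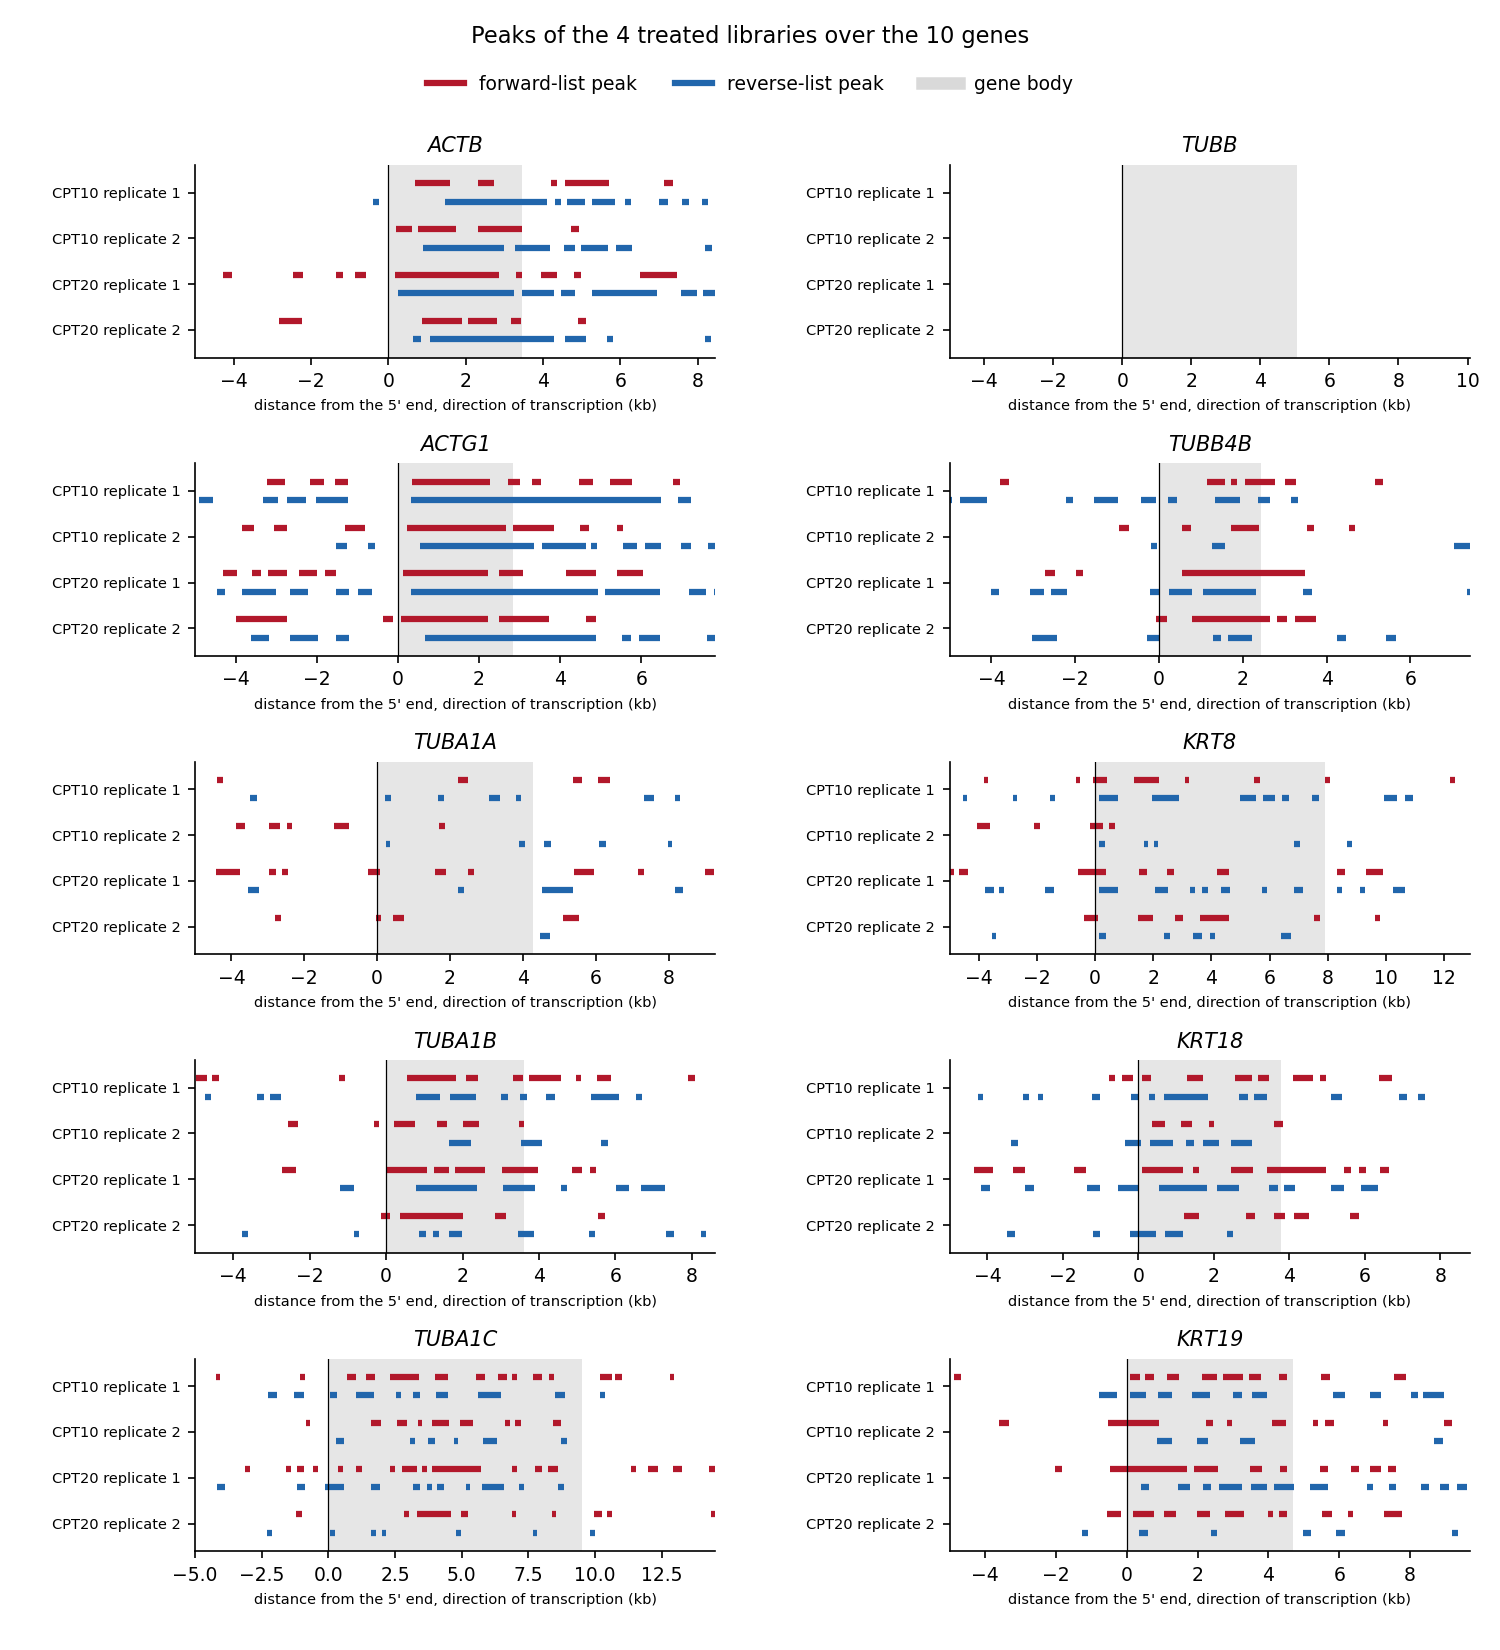
Peaks of the forward lists (red) and reverse lists (blue) of the 4 libraries over the 10 genes, drawn to scale by distance from the 5′ end in the direction of transcription (horizontal axis, kb), with gene bodies shaded and 1 row per library. ACTG1 and ACTB are covered by long peaks in every library, TUBA1A has short scattered peaks and TUBB has none.

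The 3 alpha-tubulin genes lie close together on chromosome 12. Their surroundings of 500 kb on each side are therefore largely the same bases, with a peak density of 1.41 to 1.43 times the genome average. TUBA1A (chr12:49578578-49582863, minus strand), which is best known for its role in neurons, had density ratios of 1.65 and 2.03 at 10 min and 2.27 and 1.85 at 20 min. TUBA1C (chr12:49658865-49668383, plus strand) had 2.64 and 2.22 at 10 min and 3.57 and 4.34 at 20 min. TUBA1C was thus higher than TUBA1A within each library, although the Poisson intervals of the 2 genes overlapped in all 4 libraries and the difference was not tested. TUBA1B (chr12:49521565-49525178, minus strand) had 3.15 and 1.91 at 10 min and 2.38 and 5.06 at 20 min, with the largest SD between replicates of any member (1.89 at 20 min).

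TUBA1B held the narrowest recurring signal of the members. A reverse peak had its summit within 38 bp in the 4 libraries, at chr12:49523447-49523485. Its fold enrichment was 26.2 and 48.1 at 10 min and 42.3 and 31.8 at 20 min, from 62, 82, 92 and 58 fragments. The replicates of both times overlapped in fold, so no difference between times was seen at this peak. The median summit was 1729 bp downstream of the 5′ end, in the second exon. The right edge of the peak lay 14, 18 and 19 bp past the upstream end of this exon, inside the first intron, in CPT10 replicate 1, CPT10 replicate 2 and CPT20 replicate 2, while in CPT20 replicate 1 the peak ran 894 bp into the intron. Near this place the alpha-tubulin genes are identical. The sequences below are read 5′ to 3′ on the strand of transcription from the GRCh37 assembly, the build of hg19. The TUBA1B summit sequence (chr12:49523434-49523463) is shown with the base of the median summit in capitals, and the following 3 lines are the start of this exon in TUBA1B (chr12:49523476-49523505) and of the matching coding exons of TUBA1A (chr12:49580587-49580616) and TUBA1C (chr12:49663248-49663277), shown because no base differs between them.
TUBA1B summit: attggcaatgcctgCtgggagctctactgc
TUBA1B exon: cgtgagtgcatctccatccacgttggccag
TUBA1A exon: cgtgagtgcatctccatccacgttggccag
TUBA1C exon: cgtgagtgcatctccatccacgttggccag
The 30 bases at the summit occur 3 times in the assembly. Over the whole coding sequence of 1353 bases TUBA1A and TUBA1B differed at 38 positions (97.2% identity), and 67.7% of the 31-base words in TUBA1B exons occurred elsewhere in the assembly, against 1.61% in its introns. Read pairs of low mapping quality had been removed before peak calling, and the part of such shared sequence in the shape of this peak was not tested.

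A summit recurring within 100 bp on 1 strand in all 4 libraries was found over 2 members, TUBA1B and KRT8, against 5.53% of protein-coding genes, and 1609 such summits were found in all. At KRT8 (chr12:53290975-53298860, minus strand) the recurring summit was in the forward lists, at chr12:53298764-53298855, with its median 22 bp downstream of the 5′ end in the untranslated part of the first exon. Its fold enrichment was 18.4 and 12.1 at 10 min and 16.6 and 23.1 at 20 min. Unlike the sequence at the TUBA1B summit, the 30 bases around its median occurred once in the assembly. With a span of 50 bp TUBA1B alone among the members had such a summit, and with 200 bp 7 members did, against 1.88% and 13.7% of all genes.

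Of the beta-tubulin genes, TUBB4B had peaks in every list and TUBB had none. TUBB4B (chr9:140135739-140138159, plus strand) had density ratios of 2.59 and 1.86 at 10 min and 2.21 and 4.26 at 20 min, which overlapped between the times. Its strongest forward peak in CPT20 replicate 1 was 2921 bp wide and in CPT20 replicate 2 1854 bp wide. The summits of these peaks, 1922 and 1924 bp downstream of the 5′ end, had fold enrichments of 20.6 and 22.5. In CPT10 replicate 2 a forward peak had its summit at 1933 bp, with a fold enrichment of 12.7. In CPT10 replicate 1, however, the nearest forward summits were at 1773 and 2510 bp, with 7.78 and 9.83. The position near 1922 bp was singled out after its values had been seen.

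TUBB (chr6:30688129-30693199, plus strand), a widely expressed beta-tubulin gene, had no peak in any list, where 7.03, 5.21, 6.05 and 2.85 peaks would have matched the genome average of the 4 libraries. A count of 0 allowed a density ratio of up to 0.525, 0.708, 0.610 and 1.3 (upper end of the 95% Poisson interval). These limits hold only if peaks could be called at this place, which was not tested. Only 2.31% of protein-coding genes had no peak in any list. The gap was not particular to TUBB, as no summit of any list lay between 28585141 and 31415371 on chromosome 6, an interval of 2.83 Mb that includes class I genes of the major histocompatibility complex and in which all 69 protein-coding genes were without a peak. The lists also named 6 alternative haplotype sequences of chromosome 6, which held 128 peaks, and their part in the gap was not tested. The start of the coding sequence shows how close the 2 beta-tubulin genes are, with capitals at the 4 of 30 bases that differ (TUBB at chr6:30688284-30688313, TUBB4B at chr9:140135813-140135842).
TUBB: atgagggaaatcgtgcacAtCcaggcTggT
TUBB4B: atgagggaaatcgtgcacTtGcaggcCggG
Of the 31-base words in exons, 39.4% of those of TUBB and 23.2% of those of TUBB4B occurred elsewhere in the primary assembly, which holds no alternative haplotypes.

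Within each library the density ratio of KRT8 was below those of KRT18 and KRT19, a difference that was not tested. KRT8 and its filament partner KRT18 (chr12:53342902-53346690, plus strand) are neighbours on chromosome 12. KRT8 had density ratios of 2.28 and 1.46 at 10 min and 2.92 and 3.55 at 20 min. KRT18 had 3.27 and 2.10 at 10 min and 3.61 and 3.84 at 20 min. KRT19 (chr17:39679869-39684560, minus strand), a type I keratin, had 2.92 and 2.56 at 10 min and 3.56 and 5.77 at 20 min. Of all protein-coding genes, 21.6% had both CPT20 values above both CPT10 values and 8.59% had both below. In each of the 3 keratin genes both CPT20 values were above both CPT10 values. Relative to the 500 kb on each side this held for KRT8, whereas KRT18 (2.36 and 2.19 at 10 min, 2.19 and 2.90 at 20 min) and KRT19 (2.52 and 2.69 at 10 min, 2.34 and 5.50 at 20 min) overlapped between times. KRT18 also had a reverse peak with its summit at −1045 or −1035 bp from its 5′ end that ended at the same base in 3 libraries. Its fold enrichment was 14.1 (CPT10 replicate 1), 25.9 (CPT20 replicate 1) and 9.69 (CPT20 replicate 2), with no peak there in CPT10 replicate 2. This peak too was singled out after its values had been seen.

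Reverse and forward peaks that overlapped, or lay under 150 bp apart in the order that a DSB leaves, were joined to DSB sites. The 10 windows held 38 sites in CPT10 replicate 1, 17 in CPT10 replicate 2, 36 in CPT20 replicate 1 and 14 in CPT20 replicate 2. These came from 102733, 54794, 85813 and 18831 sites in the whole libraries. A site overlapping between both replicates was found at 10 min in 7 members (10.7% of all protein-coding genes) and at 20 min in 8 members (10.4%). Replicated sites present at both times, here called persistent clusters, were found in 7 members, against 3.56% of protein-coding genes and 4.81% of those whose window was no longer than the longest member window. None of these shares was matched for peak density or for the part of a gene covered by peaks. The counts of sites and clusters are therefore not independent of the densities above. TUBA1A and TUBB held no replicated site.

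The 9 persistent clusters had a median width of 2294 bp, against 1725 bp for all persistent clusters, and 8 of them touched coding sequence. The largest, chr17:79473342-79479751, covered all but the first 74 bp of ACTG1 and ran 3655 bp past its 3′ end. ACTG1 had a further one upstream of its 5′ end, chr17:79480394-79483806. That of ACTB, chr7:5565941-5570051, covered the gene from 181 bp after its 5′ end and 838 bp past its 3′ end. The remaining persistent clusters lay at the 5′ parts of TUBA1B (chr12:49522802-49525185), KRT8 (chr12:53298070-53299439), KRT18 (chr12:53342370-53344609) and KRT19 (chr17:39682784-39685077), in the middle of TUBA1C (chr12:49662614-49664592) and further inside KRT19 (chr17:39681293-39682673). Apart from the one upstream of ACTG1, the midpoints of the 9 clusters lay 105 to 4738 bp downstream of the 5′ end. Their support was uneven. In CPT10 replicate 2 the −log10 q, that of the weaker peak of a site, was 2.93 at TUBA1B and 29.1 at the largest ACTG1 cluster. At TUBA1B this weaker forward peak began before the reverse peak that it overlapped.

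Sites replicated at 10 min only, or transient clusters, were found in 3 members (8.35% of protein-coding genes), past the 3′ end of ACTB (chr7:5564381-5565662), at the 3′ end of TUBA1B (chr12:49520752-49521867) and in TUBA1C. The ACTB cluster was also met by 1 site in each CPT20 library, and these did not overlap each other. The TUBA1B and TUBA1C clusters were each met by 1 site in CPT20 replicate 1 and 0 in CPT20 replicate 2, the library with the shortest lists, so that their class turned on that library. TUBB4B held the only late cluster, replicated at 20 min only (chr9:140135964-140139218, 8.24% of protein-coding genes). CPT10 replicate 1 had 3 sites inside it and CPT10 replicate 2 none, so that its class turned on CPT10 replicate 2.

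Between the times, the density ratio of the 10 windows was 2.14 ± 0.248 at 10 min and 3.22 ± 0.729 at 20 min (SD, n = 2), a log2 difference of 0.59 with a two-sided exact permutation p of 0.333, the smallest that 2 libraries against 2 can give. Both CPT20 libraries were above both CPT10 libraries for ACTB, TUBA1C, KRT8, KRT18 and KRT19, that is 5 members against 21.6% of all protein-coding genes, and both were below for 0 members against 8.59%. Relative to the 500 kb on each side of each gene, the times were separated in this way for KRT8 alone (1.67 and 1.59 at 10 min, 1.83 and 2.90 at 20 min), that is 1 member against 17.6% of protein-coding genes, and 0 members were lower at 20 min against 12.6%. With scaling by the genome average, the log2 differences of the 5 genes were 0.61, 0.70, 0.79, 0.47 and 0.77. The shortest lists were those of CPT20 replicate 2, the library with the highest density ratio for 8 genes. With every list limited to its 286491 strongest peaks the difference over the 10 windows was 0.16 on the log2 scale (exact permutation p = 1.0). The number of DSB sites, not scaled for depth, was 27.5 ± 14.8 at 10 min and 25 ± 15.6 at 20 min (SD, n = 2, log2 difference −0.14, exact permutation p = 0.667). This difference was well within the spread between replicates. The whole libraries held 102733 and 54794 sites at 10 min and 85813 and 18831 at 20 min. The raw counts therefore do not show whether the members' part of all sites changed.

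Peak summits were denser in the gene bodies than in the 5 kb flanks of the same windows. Per kb, 1.43 summits lay in bodies and 0.9 in flanks in CPT10 replicate 1 (ratio 1.59, p = 0.00482 in a two-sided exact binomial test). This ratio was 2.28 in CPT10 replicate 2 (p = 5.87e-05, exact binomial), 1.29 in CPT20 replicate 1 (p = 0.126) and 2.19 in CPT20 replicate 2 (p = 8.55e-05). Over all protein-coding genes it was 0.824 to 1.0. The excess of the bodies over the flanks was thus past 0.05 in 3 of 4 libraries, and in CPT20 replicate 1 it was not. It depended on the span taken as gene body. With the whole annotated gene feature, which is 37494 bp long for ACTB, 52768 bp for KRT8 and 85865 bp for TUBA1C, the mean ratio was 1.0.

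Summits were also unevenly placed around the 5′ end. In the 5 kb downstream of the 5′ ends there were 1.77 times as many summits as in the 5 kb upstream in CPT10 replicate 1 (exact binomial p = 0.00502), 2.95 times in CPT10 replicate 2 (p = 2.24e-05), 1.34 times in CPT20 replicate 1 (p = 0.152) and 2.95 times in CPT20 replicate 2 (p = 2.24e-05), against 1.17 to 1.41 over all protein-coding genes. In bins of 1 kb, the mean summit density rose from 2.14 times the genome average in the last kb before the 5′ end to 3.58 in the kb after it and 4.56 between 1 and 2 kb downstream. This bin was the highest in CPT10 replicate 2 (4.34) and CPT20 replicate 2 (7.41), whereas the highest was 2 to 3 kb downstream in CPT10 replicate 1 (3.43) and 4 to 5 kb in CPT20 replicate 1 (3.74). Over all protein-coding genes the mean was 1.74 between 1 and 2 kb. The mean density of the 10 genes was still 3.76 between 4 and 5 kb, which lies past the 3′ end of 5 of the genes. The 3′ flanks held 1.31, 1.53, 1.09 and 1.68 times as many summits as the 5′ flanks, and none of these ratios passed 0.05.

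**Figure D4:**
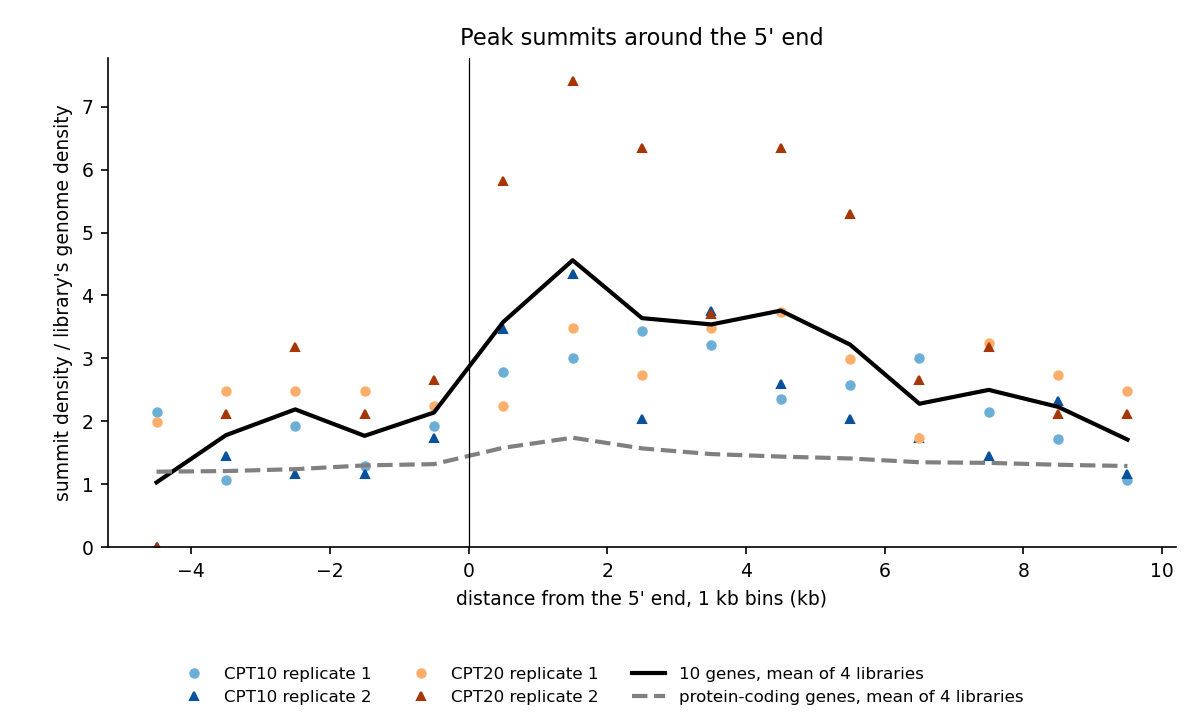
Density of peak summits by distance from the 5′ end (horizontal axis, 1 kb bins) as a ratio to each library's genome average, with points for the 4 libraries, a black line for the mean of the 10 genes and a dashed line for protein-coding genes. The mean of the 10 genes rises from 2.14 before the 5′ end to 4.56 between 1 and 2 kb downstream.

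No difference between the strands was detected. The peaks of the forward lists relative to transcription made up 82 of 159 (51.6%, 95% Wilson interval 43.9 to 59.2), 50 of 100 (40.4 to 59.6), 80 of 160 (42.3 to 57.7) and 52 of 104 (40.6 to 59.4) of the peaks over the 10 windows, within 1 percentage point of the share over all peaks of each library. Neighbouring peaks of opposite strand that did not overlap were in the order reverse then forward, which a DSB leaves, 29 times and in the opposite order 22 times (ratio 1.32, two-sided exact binomial p = 0.401). An excess of the DSB order was therefore not detectable at these counts, and wide peaks such as those of the actins, which overlap, did not enter it.

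The processed pseudogenes of the same families served as copies of the coding sequence at other places. There were 168 of them, 65 of KRT18, 51 of KRT8, 19 of ACTG1, 12 of ACTB, 8 each of TUBB and TUBB4B and 5 of KRT19, with 205007 bp in all. The alpha-tubulin genes had 0 pseudogenes of this naming, while the gene bodies were those of all 10 members, introns included. In CPT10 replicate 1 the summit density ratio was 3.07 in the gene bodies and 1.13 in the pseudogenes. CPT10 replicate 2 gave 3.16 and 0.861, respectively. The values of CPT20 replicate 1 were 3.14 and 1.28. CPT20 replicate 2 had 5.90 and 0.697. The 95% Poisson intervals of bodies and pseudogenes did not overlap in any library, and the bodies were 2.71, 3.67, 2.46 and 8.46 times denser, 4.33 times on average. Without the alpha-tubulin genes the average was 4.22. It depended on the span taken as gene body, and with the whole annotated gene feature it was 2.15. Read pairs of low mapping quality had been removed, and sequence shared with other places was not measured in the pseudogenes. Its part in this difference was not tested.

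**Figure D5:**
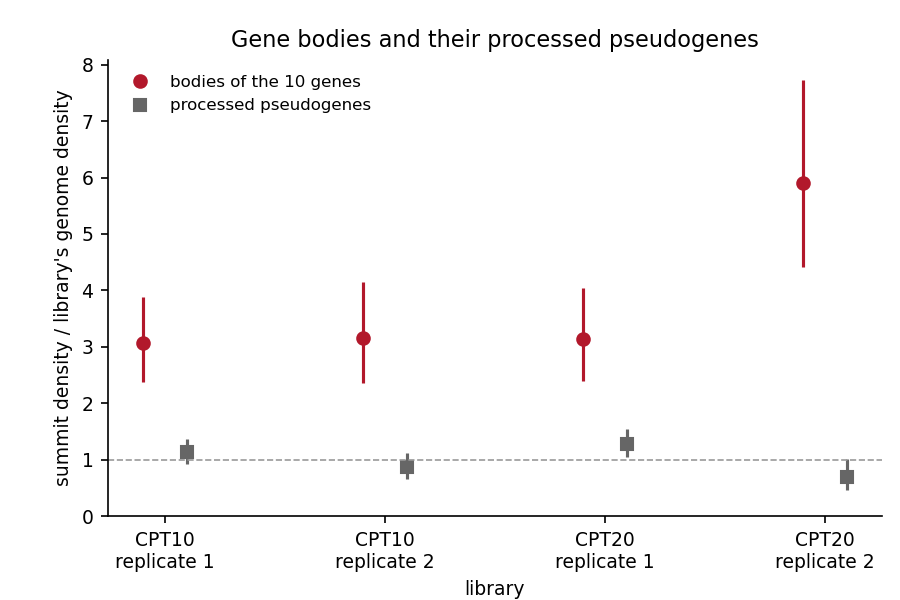
Density of peak summits in the bodies of the 10 genes (red circles) and in 168 processed pseudogenes of the same families (grey squares) as a ratio to the library's genome average (vertical axis), with exact 95% Poisson intervals. The gene bodies lie between 3.07 and 5.90 and the pseudogenes between 0.697 and 1.28. Sequence shared with other places was not measured in the pseudogenes.

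Within the gene bodies, exons made up 38.9% of the length. They held 1.62, 1.03, 1.08 and 1.3 summits per kb in the 4 libraries and introns held 1.31, 1.14, 1.38 and 0.999, so that the order of exons and introns differed between libraries. Sequence shared with other places was more common in exons than in introns for each member except KRT19. It was highest in the exons of TUBA1B (67.7%), KRT8 (61.0%), TUBA1A (60.7%) and KRT18 (59.7%), as the share of 31-base words that occurred elsewhere, and lowest in those of KRT19 (9.14%). The actin genes, in which 42.8% (ACTB) and 27.3% (ACTG1) of the exon words occurred elsewhere, differed at 98 of 1125 coding bases (91.3% identity). The start of their coding sequence, with the 6 differing bases in capitals, shows the scale of this difference (ACTB at chr7:5569259-5569288, ACTG1 at chr17:79479351-79479380).
ACTB: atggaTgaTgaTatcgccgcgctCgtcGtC
ACTG1: atggaAgaAgaGatcgccgcgctGgtcAtT

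Among 28 other actin, tubulin and keratin genes, most of them known from muscle, neurons or stratified epithelia, the median density ratio was 1.01, against 2.95 for the 10 members and 1.21 for all protein-coding genes. Of these 28 genes, 0 held a persistent cluster (3.56% of all protein-coding genes), 1 had a replicated site at 10 min (10.7%) and 2 had one at 20 min (10.4%), counts too small to set apart from these shares. The highest were TUBB3 (2.96), TUBB2A (2.19) and KRT15 (2.17), and KRT15 overlaps the window of its neighbour KRT19. Among 24 genes for proteins that bind actin or microtubules the median was 1.85, and 8 held a persistent cluster (ACTN4, CFL1, EZR, MYH9, MYL12A, MYL6, PFN1 and TPM4). The highest were EZR (4.27), which links actin to the plasma membrane, MYL6 (3.61), a myosin light chain, and CFL1 (3.49), which severs actin filaments. The median share of the gene body covered by peaks was 7.99% for the other family genes, 20.0% for the partner genes and 64.3% for the 10 members. The lists were not matched for gene length.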

How the data were processed

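Per the study's methods, the authors trimmed paired-end reads with Trim Galore 0.6.5, aligned them to hg19 with Bowtie2 2.5.0 and used SAMtools 1.16.1 to keep properly paired alignments of mapping quality 30 or more without removing duplicates. Forward and reverse alignments were separated by the first read of a pair, and peaks were called with MACS2 2.2.7.1 for each library and strand at a q-value of 0.05, with the control as input and no local background. The deposited lists give a score (10 times the −log10 q), a fold enrichment of the summit, and its −log10 p and −log10 q. The fold enrichment is a linear ratio, with a fragment added to the summit height and to the expected height. Spike-in scaling came after peak calling and does not enter the lists. Since the expected height is constant in a list (0.727 to 1.44 fragments), whole-number summit heights were recovered from the fold values, and 100.0% of those up to 50 fragments were whole within 0.05. Read totals were not used here.

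Genes followed GENCODE 44 mapped to GRCh37, with the MANE Select or Ensembl canonical transcript as gene body. A peak was counted where it overlapped a window by 1 bp, and densities of parts of windows used summits. Classes of clusters lacked the study's blacklist and its read-count test with limma. Libraries were compared by exact permutation tests and positions by two-sided exact binomial tests. Replicates are described as biological. The named sites are the 12 replicated ones of best worst rank of −log10 q of 13, and in the other lists the 3 genes of highest density. The members, lists and tests were chosen with earlier results of these data known. Scripts were tested on simulated data and run with Python 3.11.15, pandas 2.3.3, numpy 2.4.6 and SciPy 1.17.1.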

Additional observations from a re-analysis of the deposited data

How the results depend on the processing

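Across 13 results, 91 alternatives were run, and 77 were counted as unchanged. Counts were unchanged within 1.5 times, and the ratio to pseudogenes within 1 SD between libraries. The other results were unchanged if not reversed and on the same side of the threshold. Strand shares could cross equality and still count as unchanged, since no library passed 0.05. Differences between times could not pass 0.05 in any setting, so for them only the direction could change. The difference in peak density between times was positive in every alternative, from 0.16 with lists of equal length to 1.06 with peaks of −log10 q of at least 10, and 0.34 to 0.80 on leaving out a library. It was 0.58 with the replicate number as a block (exact sign-flip permutation p = 0.5, the smallest for 2 pairs). The deviations of same-numbered libraries from their group means correlated at 0.219 over protein-coding genes, which with 2 pairs does not establish a pairing. The difference in the unscaled number of DSB sites had no stable sign. It was −0.14 as reported and −0.18 with the replicate block, but 0.50 with −log10 q of at least 10, 0.07 with lists of equal length, 0.19 with the span of the gene feature, and −0.97 to 0.56 on leaving out a library (0.56 without CPT10 replicate 1, 0.39 without CPT20 replicate 2). With −log10 q of at least 10, 3 genes had a replicated site at 10 min, 5 at 20 min and 3 a persistent cluster. The shares of all protein-coding genes were not computed at this limit, so these counts have no background beside them. The body to flank ratio was 1.83 on average over libraries and 1.0 with the gene feature, where 0 libraries passed 0.05, and the downstream to upstream ratio was 2.25 and, with 2 kb on each side, 2.12 with 2 libraries past 0.05. Leaving out single genes gave 1.70 to 2.15 for the former and 2.07 to 2.72 for the latter. With −log10 q of at least 10 the downstream to upstream ratio and the comparison with pseudogenes could not be given, since at least 1 library had no summit in the denominator. Alternatives for recurring summits, wide peaks, separated times and the alpha-tubulin genes were chosen after seeing the data. With scaling by the 500 kb on each side, both CPT20 libraries were above both CPT10 libraries for 1 gene in place of 5. A recurring summit was found in 1 gene within 50 bp and 7 genes within 200 bp (1.88% and 13.7% of protein-coding genes). A wide peak in each library was found in 2 genes from 1000 bp and 0 from 3000 bp, against 0.642% and 0.00498% of protein-coding genes. With 2 libraries per time, no difference between times could pass 0.05, and the shortest lists, those of CPT20 replicate 2, limit the number of sites.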
